A study of Homo sapiens with 8 samples.

Results

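PCNA peaks on the 5 acrocentric human chromosomes, 13, 14, 15, 21 and 22, were taken from the 4 deposited peak lists by chromosome name alone. They numbered 232 of the 4020 peaks listed. The lists describe MCF10A, a breast epithelial line of human origin that does not form tumours, and *TUBG*-shRNA-MCF10A (*TUBG*-shRNA cells in the following), which stably expresses a short hairpin RNA against γ-tubulin and is kept under Zeocin. Both populations were synchronized with a double thymidine block, released, and harvested after 1 or 2 h for chromatin immunoprecipitation with the PCNA antibody sc-7907, followed by sequencing (ChIP-seq). Each of the 4 conditions had 2 libraries, 8 in all, which the authors called together as 1 list against whole-cell lysate. The labels name no transfection or selection for the MCF10A cells, the hairpin lowers γ-tubulin without removing its genes, and whether the hairpin cells are a clone is not given in the sources used here.

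PCNA is the ring-shaped clamp that holds replicative DNA polymerases on their template, and it gathers at sites of DNA synthesis in S phase. The acrocentric chromosomes have their centromere close to one end. Their short arms carry the arrays of ribosomal RNA genes from which nucleoli form, flanked by satellite and duplicated DNA. In the hg19 build used for these lists, nearly all of this short-arm sequence is missing. The assembled sequence of chromosomes 13, 14, 15 and 22 starts on the long arm side of the centromere gap, at about 19, 19, 20 and 16 Mb, respectively. Chromosome 21 also has an assembled stretch of short arm, from 9 Mb up to its centromere gap, and its long arm starts at about 14 Mb. Each long arm was divided into its first 5 Mb beside the gap and the rest. How reads that match several places were treated is not given in the sources used here, and no hg19 annotation was used. The peaks are therefore described by position, without genes or repeats.

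The spread between replicates is not known, because each list pools its libraries. The 95% intervals below cover counting error only and are too narrow where peaks lie close together. The number of reads at each summit was solved from the fold enrichment and the p-value of the peak. The lists differed in the fragment length used in peak calling, seen as the shortest peak: 121 bp (MCF10A, 1 h), 47 bp (MCF10A, 2 h), 112 bp (*TUBG*-shRNA, 1 h) and 115 bp (*TUBG*-shRNA, 2 h). The genome-wide background was 1.88, 0.438, 1.36 and at most 1.39 reads in the same order. Hence, the MCF10A list at 2 h stands apart from the other 3 lists in how it was called, and the part of this in the peak numbers was not tested.

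In MCF10A cells, the acrocentric chromosomes carried 21 PCNA peaks at 1 h and 192 at 2 h. In *TUBG*-shRNA cells, they carried 11 peaks at 1 h and 8 at 2 h. Most of these peaks lay on chromosome 21 in each condition. MCF10A cells had 19 peaks on this chromosome at 1 h and 118 at 2 h, whereas *TUBG*-shRNA cells had 6 and 5. The acrocentric share of the whole list was 3.74% (95% Wilson interval 2.46 to 5.64) in MCF10A cells at 1 h, 6.94% (6.05 to 7.94) at 2 h, 3.79% (2.13 to 6.66) in *TUBG*-shRNA cells at 1 h, and 2% (1.02 to 3.90) at 2 h. Thus, the share was highest in the MCF10A list at 2 h. Its interval overlapped that of *TUBG*-shRNA cells at 1 h, and the intervals of the 3 shorter lists overlapped each other.

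**Figure D1:**
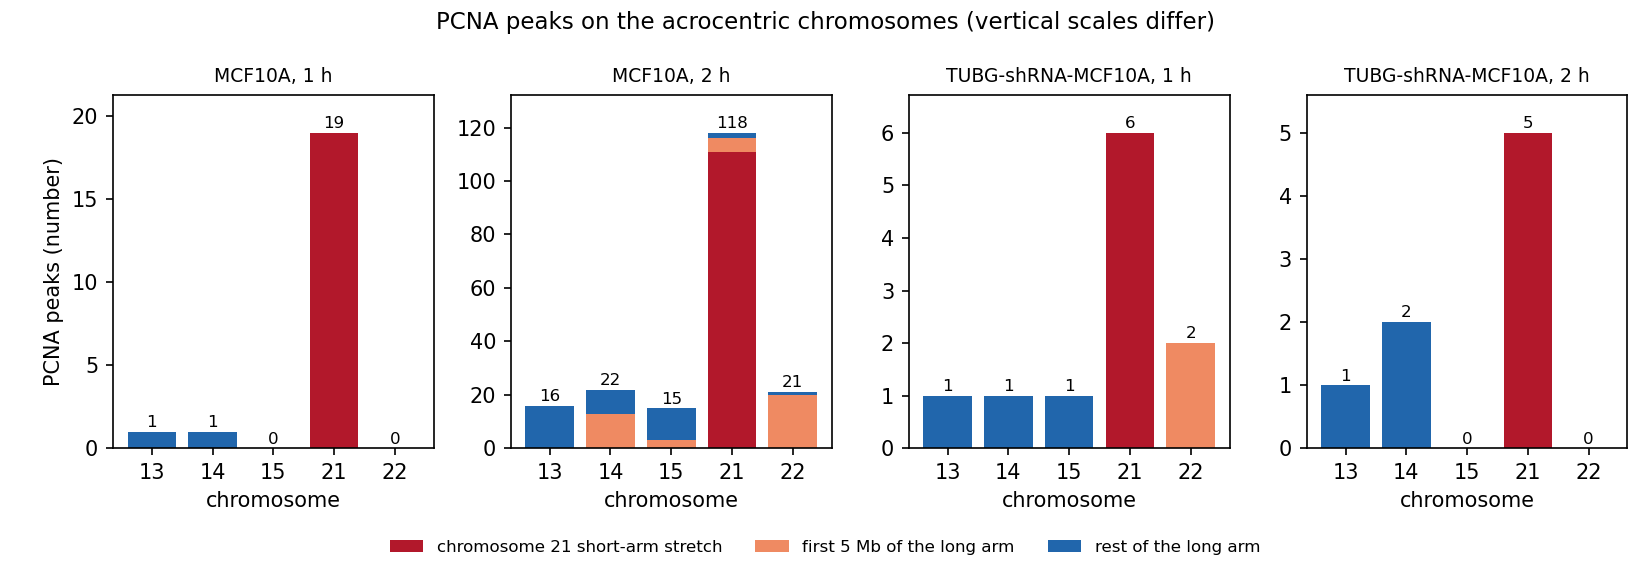
Number of PCNA peaks on each acrocentric chromosome in the 4 lists, coloured by stretch: the assembled short arm of chromosome 21, the first 5 Mb of each long arm, and the rest of the long arm. Vertical scales differ. Chromosome 21 holds the tallest bar in each list, with 19, 118, 6 and 5 peaks, and its short-arm stretch makes up all or nearly all of that bar.

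Among the other acrocentric chromosomes, chromosome 13 had 1 peak (MCF10A, 1 h), 16 peaks (MCF10A, 2 h), and 1 peak in each *TUBG*-shRNA list. Chromosome 14 had 1 and 22 peaks in MCF10A cells and 1 and 2 peaks in *TUBG*-shRNA cells. Chromosome 15 had no peak in MCF10A cells at 1 h, 15 at 2 h, 1 in *TUBG*-shRNA cells at 1 h, and none at 2 h. On chromosome 22, no peak was listed in MCF10A cells at 1 h, 21 at 2 h, 2 in *TUBG*-shRNA cells at 1 h, and none at 2 h. Each of the 5 chromosomes had its largest number of peaks in the MCF10A list at 2 h.

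At 1 h, MCF10A cells had 1.91 times as many acrocentric peaks as *TUBG*-shRNA cells (95% exact binomial interval 0.880 to 4.38), an interval that includes 1. Among peaks with a −log10 q-value of at least 5, the ratio was 3.75 (1.19 to 15.5), and at a value of at least 10, it was 1.5 (0.172 to 18). Among those enriched at least 3-fold, it was 3 (1.04 to 10.6). Whether the interval included 1 thus depended on the threshold. Of the 21 MCF10A peaks at 1 h, 17 lay within 72.6 kb of chromosome 21, so these intervals are too narrow. On all other chromosomes, the ratio in the full lists was 1.94 (1.68 to 2.25). At 2 h, the acrocentric ratio was 24 (11.9 to 56.4), against 6.57 (5.91 to 7.33) on the other chromosomes. From 1 to 2 h, the number of acrocentric peaks in MCF10A cells changed by a factor of 9.14 (5.81 to 15.1), against 4.76 (4.34 to 5.23) elsewhere. In *TUBG*-shRNA cells, the factor was 0.727 (0.254 to 1.99) on the acrocentric chromosomes and 1.41 (1.20 to 1.64) elsewhere. The acrocentric factor was 1.5 (0.356 to 7.23) at a −log10 q-value of at least 5, and each of these intervals for *TUBG*-shRNA cells on the acrocentric chromosomes includes 1. With 1 pooled list per condition, none of these differences could be tested against replicates, and both high ratios involve the list called with the short fragment length.

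At 1 h, most of the acrocentric peaks lay in the short-arm stretch of chromosome 21. It held 19 of the 21 acrocentric peaks of MCF10A cells (90.5%, 71.1 to 97.3) and 6 of the 11 peaks of *TUBG*-shRNA cells (54.5%, 28.0 to 78.7), a ratio of 3.17 (1.22 to 9.69). On the long arms alone, 2 peaks were listed in MCF10A and 5 in *TUBG*-shRNA cells, a ratio of 0.4 (0.0381 to 2.44). At 2 h, the short-arm stretch held 111 of the 192 MCF10A peaks (57.8%, 50.7 to 64.6) and 5 of the 8 *TUBG*-shRNA peaks (62.5%, 30.6 to 86.3). The long arms then held 81 and 3 peaks, a ratio of 27 (8.92 to 134).

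Within the short-arm stretch, nearly all peaks belonged to 1 dense run. Peaks were counted as a run where at least 3 of them followed each other with at most 10 kb between neighbours, a definition chosen after the positions were seen. In MCF10A cells at 2 h, the run on chromosome 21 spanned 85.4 kb, chr21:10775238-10860622, and consisted of 102 peaks, or 1.19 peaks per kb. Its summits were a median of 703 bp apart, with gaps from 115 to 3364 bp, and the peaks covered 9.56% of the run. The same interval contained 17 peaks in MCF10A cells at 1 h, 6 in *TUBG*-shRNA cells at 1 h, and 5 at 2 h. This interval alone accounted for 81.0%, 53.1%, 54.5% and 62.5% of the acrocentric peaks in MCF10A cells at 1 h and 2 h and in *TUBG*-shRNA cells at 1 h and 2 h, respectively. No peak of *TUBG*-shRNA cells lay elsewhere in the short-arm stretch.

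The peaks of this run differed in strength along its length. In the MCF10A list at 2 h, fold enrichments ran from 3.99 to 19.5, with a median of 7.63. In steps of 10 kb from the first base of the run, the first 6 steps held 9 to 11 peaks each, the step from 60 to 70 kb held 19, and the next held 13. The step from 60 to 70 kb also held the largest number of MCF10A peaks at 1 h, 6 of 17, with the peak of highest significance in both 1 h lists. The peak with the highest fold enrichment, chr21:10836838-10836904, was 19.5-fold above background in MCF10A cells at 2 h. It had 30 summit reads over a local background of 0.586 reads, 1.34 times the genome-wide value. It overlapped a 1 h MCF10A peak of 4.18-fold, chr21:10836784-10836960, and no peak of *TUBG*-shRNA cells. The 1 h peak had 32 summit reads over a background of 6.89 reads, 3.67 times the genome-wide value of its list. These reads are not scaled between the 2 lists, and no change in signal was read from them.

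**Figure D2:**
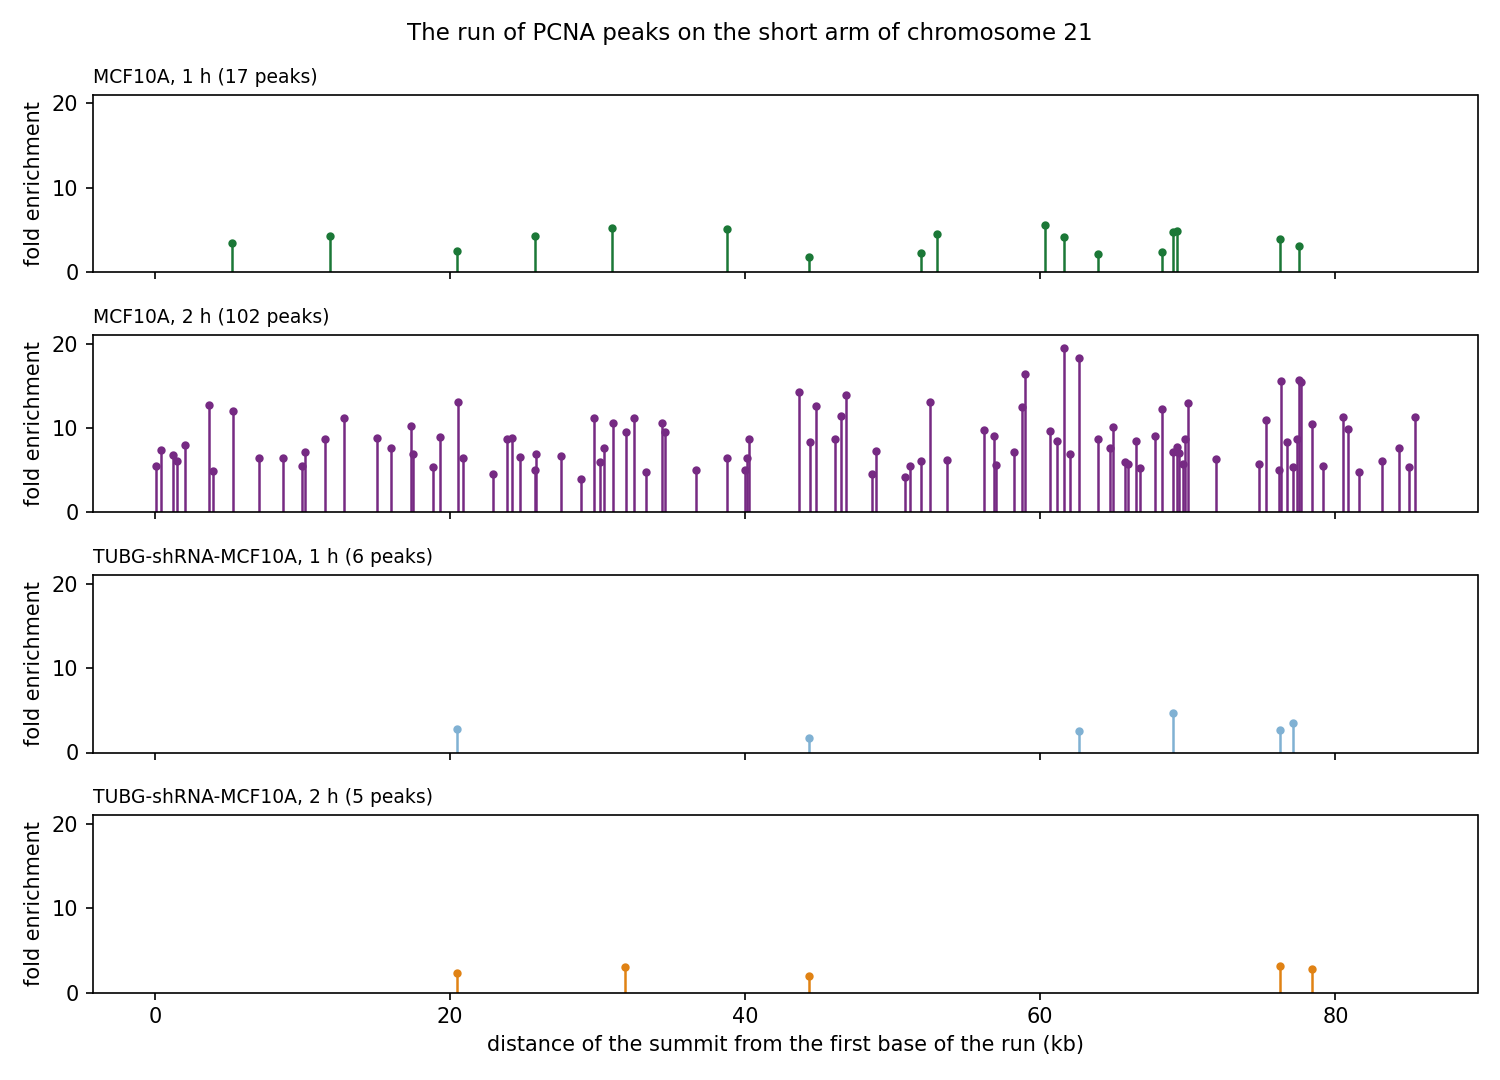
PCNA peaks in the 85.4 kb run on the short arm of chromosome 21. The horizontal axis gives the distance of each summit from the first base of the run in kb, and the vertical axis gives the authors' fold enrichment, with 1 panel per list and the same scale in each. The 102 peaks of MCF10A cells at 2 h fill the run and reach 19.5, while the 17, 6 and 5 peaks of the other lists stay below 6 and lie at some of the same places.

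In the run, 3 peaks were shared by all 4 lists, with at least 25% of both peaks in common. The first of them, chr21:10795688-10795786 in MCF10A cells at 2 h, had a fold enrichment of 13.1 there, against 2.54 in MCF10A cells at 1 h and 2.77 (1 h) and 2.34 (2 h) in *TUBG*-shRNA cells. The numbers of summit reads were 49 (1 h) and 35 (2 h) in MCF10A cells, and 50 (1 h) and 44 (2 h) in *TUBG*-shRNA cells. The local background was 18.7 (1 h) and 1.76 (2 h) reads in MCF10A cells, and 17.4 (1 h) and 18.2 (2 h) reads in *TUBG*-shRNA cells.

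Both counts can change with the fragment length used in peak calling, so they were also expressed in multiples of the genome-wide background of each list. How far the summit reads of narrow peaks change with it was not tested. The background at this peak was then 9.95 times (1 h) and 4.01 times (2 h) the genome-wide value in MCF10A cells, and 12.8 times and at least 13 times in *TUBG*-shRNA cells. The summit reads were 26.1 and 79.9 times the genome-wide background in MCF10A cells, and 36.8 and at least 31.5 times in *TUBG*-shRNA cells. On this scale, the MCF10A list at 2 h had the lowest background, and its summit was higher than in both 1 h lists. For *TUBG*-shRNA cells at 2 h, only a lower limit of the scaled summit is known. Without scaling, the MCF10A list at 2 h had the fewest summit reads at this peak.

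The second shared peak, chr21:10819360-10819750, was the strongest acrocentric peak of MCF10A cells at 2 h, with a −log10 q-value of 37.2 and a rank of 71 in its list. Its fold enrichment was 1.86 (1 h) and 8.36 (2 h) in MCF10A cells, and 1.71 (1 h) and 1.95 (2 h) in *TUBG*-shRNA cells. Its summit reads were 136 (1 h) and 71 (2 h) in MCF10A cells, and 125 (1 h) and 116 (2 h) in *TUBG*-shRNA cells. The summits of the other 3 lists lay 4 to 20 bp from the summit of this peak. Of the 3 shared peaks, this was the widest, between 360 and 391 bp in each list. Among these 3, it also had the highest background, 72.8, 7.62, 72.9 and 59.1 reads in the order of lists above. The last of the 3, chr21:10851477-10851570, had a fold enrichment of 4 (1 h) and 15.6 (2 h) in MCF10A cells, and of 2.63 and 3.11 in *TUBG*-shRNA cells. Here, summit reads were 66 and 42 in MCF10A cells and 67 and 54 in *TUBG*-shRNA cells. In multiples of the genome-wide background, they were 35.1 and 95.9 in MCF10A cells and 49.3 and at least 38.7 in *TUBG*-shRNA cells, and at the second peak 72.4, 162, 92 and at least 83.2 in the same order. At each of the 3 peaks, the scaled summit of the MCF10A list at 2 h was above those of both 1 h lists. It was also above the lower limit for *TUBG*-shRNA cells at 2 h. Without scaling, this list had the fewest summit reads at each of them. Its place among the lists thus depends on the scaling, which divides by the smallest background of each list. No change in PCNA signal was read from either order. In *TUBG*-shRNA cells at 2 h, the last of the 3 was the strongest peak of the short-arm stretch, with a −log10 q-value of 7.85 and a rank of 177.

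At 1 h, the strongest acrocentric peak was at the same place in both cell populations. In MCF10A cells, it was chr21:10844113-10844315, with 4.76-fold enrichment, a −log10 q-value of 17.4 and 60 summit reads. In *TUBG*-shRNA cells, it was chr21:10844181-10844305, with 4.67-fold enrichment, a −log10 q-value of 14.8 and 54 summit reads. The 2 summits were 10 bp apart. At this place, the MCF10A list at 2 h had a peak of 7.18-fold, and the nearest summit of *TUBG*-shRNA cells at 2 h was 7269 bp from that of the 1 h list.

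Outside the run, the short-arm stretch contained few peaks. In MCF10A cells at 2 h there were 9, of which 5 formed a second run of 2.04 kb, chr21:10085040-10087083, with a fold enrichment up to 9.95. Of the 2 in MCF10A cells at 1 h, 1 lay within this second run, chr21:10086952-10087072, and was weak (1.99-fold, −log10 q-value 1.61). The other, chr21:11075361-11075541, had a fold enrichment of 3.38 and overlapped no other list.

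On the long arms, peaks beside the centromere gap were almost only seen in MCF10A cells at 2 h. This list had 41 peaks in the first 5 Mb of the 5 long arms, or 1.64 per Mb, and 40 in the rest, or 0.129 per Mb. The density was 12.8 times higher beside the gap (95% exact binomial interval 8.05 to 20.2). In MCF10A cells at 1 h, none of the 21 acrocentric peaks lay in the first 5 Mb (upper bound of the Wilson interval, 15.5%) and 2 lay in the rest. *TUBG*-shRNA cells had 2 peaks in the first 5 Mb and 3 in the rest at 1 h, a density ratio of 8.3 (0.693 to 72.4). At 2 h, they had none (upper bound, 32.4% of 8 peaks) and 3. A difference in density was not detectable at these numbers in the 3 shorter lists.

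The 5 long arms of the MCF10A list at 2 h differed in this respect. Chromosome 22 had 20 of its 21 peaks in the first 5 Mb, chromosome 14 had 13 of 22, chromosome 21 had 5 of 7, chromosome 15 had 3 of 15, and chromosome 13 had none of 16. The density beside the gap was 121 times (19.4 to 5016) that of the rest of the arm on chromosome 22, 24.1 times (9.52 to 63.8) on chromosome 14 and 14.4 times (2.36 to 151) on chromosome 21. On chromosome 15, the ratio of 3.88 (0.702 to 14.4) had an interval that includes 1. On chromosome 13, the peak nearest to the gap was 18.7 Mb from the first assembled base.

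The peaks beside the gap were packed at its very edge on 3 chromosomes. On chromosome 14, 12 peaks lay within 100 kb of the first assembled base, the nearest at 4.16 kb, and 10 of them formed a run of 15.0 kb, chr14:19004136-19019140. On chromosome 15, the 3 peaks of the window all lay within 100 kb, the nearest at 2.51 kb. On chromosome 21, 4 peaks lay within 100 kb, the nearest at 4.35 kb, and 3 of them formed a run, chr21:14359150-14366030. On chromosome 22, by contrast, no peak lay within 100 kb. There, 19 peaks formed a run of 13.4 kb, chr22:16849076-16862450, which started 799 kb from the first assembled base. Together, 38 of the 81 long-arm peaks of this list lay within 1 Mb of the gap.

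**Figure D3:**
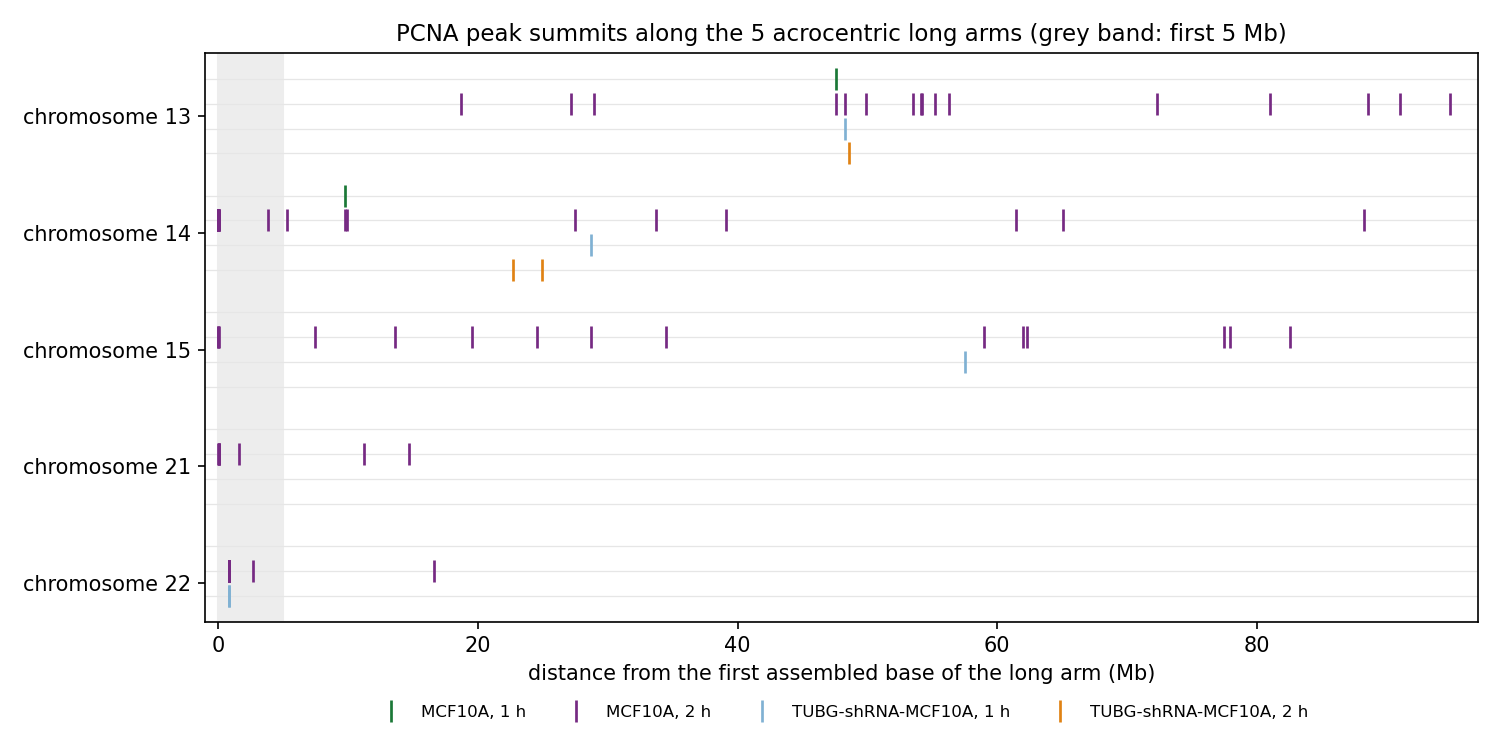
Summits of the long-arm PCNA peaks on the 5 acrocentric chromosomes, as distance from the first assembled base of the long arm in Mb, with 1 row per list within each chromosome and a grey band over the first 5 Mb. Tightly packed peaks merge into single marks at this scale. Marks of MCF10A cells at 2 h stand at the left edge on chromosomes 14, 15, 21 and 22, and those on chromosome 13 start at 18.7 Mb.

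The run on chromosome 22 held the only long-arm peaks beside the gap in another list. In *TUBG*-shRNA cells at 1 h, chr22:16850102-16850302 had a fold enrichment of 2.65 and chr22:16850901-16851012 had 3.34, with 28 and 30 summit reads. Both touched a peak of MCF10A cells at 2 h, of 6.45-fold and 3.14-fold. MCF10A cells at 1 h had no peak on this chromosome. The strongest peak of the run, chr22:16861631-16861686, appeared at 2 h in MCF10A cells only, with 5.82-fold enrichment, a −log10 q-value of 27.7, 73 summit reads and a background of 11.7 reads. On chromosome 14, the strongest peak of the same list, chr14:19015174-19015220, also lay beside the gap, where it was enriched 7.38-fold (−log10 q-value 13.7).

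In the rest of the long arms, PCNA peaks were scattered. In MCF10A cells at 2 h, the 40 peaks had no runs, and the closest neighbours on 1 chromosome were 83.6 kb apart, on chromosome 14. The strongest were chr14:58089108-58089162, with a fold enrichment of 10.1, 16 summit reads and a −log10 q-value of 12.7, chr15:39550765-39550812, with 7.48 and 24 reads, and chr13:46222766-46222813, with 7.18 and 23 reads. None of these 3 overlapped a peak of another list. Over the whole long arms, the list had 0.241 peaks per Mb, against 0.956 per Mb of the other nuclear chromosomes, centromeres and gaps included.

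Counted over all acrocentric stretches, 139 of the 192 peaks of MCF10A cells at 2 h belonged to a run (72.4%, 65.7 to 78.2), against 80% on the other chromosomes. At 1 h, 17 of 21 did so in MCF10A cells (81.0%, against 78.7%) and 4 of 11 in *TUBG*-shRNA cells (36.4%, against 67.4%). None of the 8 peaks of *TUBG*-shRNA cells at 2 h was in a run, against 82.4% elsewhere. With at most 5 kb between neighbours, the acrocentric share was 70.8% in MCF10A cells at 2 h (78.5% on the other chromosomes) and 28.6% at 1 h (73.8%). It was 0% in both *TUBG*-shRNA lists, against 64.9% (1 h) and 80.9% (2 h) elsewhere.

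Both long-arm peaks of MCF10A cells at 1 h were found again at 2 h. The first, chr14:28800616-28800748, had a fold enrichment of 8.07 at 1 h, the highest among the acrocentric peaks of that list, and of 4.58 at 2 h, with summits 6 bp apart. The second, chr13:66568229-66568349, had 3.34 at 1 h and 5.08 at 2 h, with summits 14 bp apart. Neither overlapped a peak of *TUBG*-shRNA cells. The fold enrichment differed in opposite directions at these 2 places, while the −log10 q-value was lower at 2 h in both, 4.36 against 16.7 and 4.01 against 7.40. Summit reads were 33 (1 h) and 17 (2 h) at the first place, over backgrounds of 3.21 and 2.93 reads. At the second they were 45 and 13, over 12.8 and 1.76 reads. The 2 lists differ in fragment length and in genome-wide background (1.88 reads at 1 h and 0.438 at 2 h), and their part in these differences was not tested. Sequencing depth was not compared.

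Of the 6 peaks of *TUBG*-shRNA cells beyond the first 5 Mb, 1 was found in another list. At 1 h, chr13:67314148-67314260 had a fold enrichment of 4.85 and overlapped a peak of 7.78-fold in MCF10A cells at 2 h. The other 1 h peaks, chr14:47694384-47694497 and chr15:77550833-77551052, had fold enrichments of 3.68 and 2.16. At 2 h, chr14:43964709-43964839 had a fold enrichment of 3.84 and the highest acrocentric −log10 q-value of its list, 13, at rank 60. The other 2 h peaks were chr13:67602339-67602468, with 4.99, and chr14:41666228-41666372, with 5.46. The nearest MCF10A summits to the 3 peaks at 2 h were between 288155 bp and 4803526 bp away.

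Next, the peaks of each list were compared by overlap, again with at least 25% of both peaks shared. This rule depends on peak width, which differs between the lists. For example, chr21:10852659-10852938 of MCF10A cells at 1 h is 280 bp wide and touches 2 peaks at 2 h. Their nearest summit is 7 bp away, but neither counts as an overlap. Of the 21 acrocentric peaks of MCF10A cells at 1 h, 16 overlapped a peak at 2 h (76.2%, 54.9 to 89.4), against 79.7% of the whole 1 h list. Of the 11 peaks of *TUBG*-shRNA cells at 1 h, 4 overlapped an MCF10A peak at 1 h (36.4%, 15.2 to 64.6), against 56.2% of the list, and 3 overlapped a peak of the same cells at 2 h (27.3%, 9.75 to 56.6), against 58.6%. Of the 8 peaks of *TUBG*-shRNA cells at 2 h, 5 overlapped an MCF10A peak at 2 h (62.5%, 30.6 to 86.3), against 83.2%. All of these intervals include the value of the whole list, except that between the 2 *TUBG*-shRNA lists, and with so few peaks the shares are poorly known. Of the 11 peaks of the 1 h *TUBG*-shRNA list, 8 (72.7%), which include the 4 and the 3 above, had a counterpart in MCF10A cells at 2 h, against 74.5% of the list, and 3 of the 8 peaks of the 2 h list (37.5%) had one in MCF10A cells at 1 h, against 53%.

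The long MCF10A list at 2 h contained many peaks without a counterpart. Only 22 of its 192 acrocentric peaks overlapped a peak of any other list (11.5%, 7.69 to 16.7), against 23.0% of the whole list. These were 18 of the 111 short-arm peaks (16.2%), 1 of the 41 beside the gap (2.44%) and 3 of the 40 in the rest (7.5%). For MCF10A cells at 1 h, 16 of 21 peaks had a counterpart in any other list, against 84.3% of the list. For *TUBG*-shRNA cells, these were 8 of 11 at 1 h, against 86.2%, and 5 of 8 at 2 h, against 90%.

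The overlaps of *TUBG*-shRNA cells lay mainly on the short arm of chromosome 21. All 6 short-arm peaks at 1 h and all 5 at 2 h overlapped an MCF10A peak at 2 h. Of the long-arm peaks of these cells, 2 of 5 did so at 1 h and 0 of 3 at 2 h. The density of MCF10A peaks at 2 h is also highest in the short-arm run, and its part in these overlaps was not tested.

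When peaks of all lists within 1 kb were joined, they formed 105 loci. Of these, 89 had a peak in 1 list, 10 in 2 lists, 3 in 3 lists and 3 in all 4. The short-arm stretch held 38 loci, including each of the 6 found in at least 3 lists. A total of 83 loci were found in MCF10A cells at 2 h only, and 5 loci, all on the long arms beyond the first 5 Mb, in *TUBG*-shRNA cells only. Loci were not formed on the other chromosomes, so no such share over the whole lists is known. As peaks, 23.0% of the whole MCF10A list at 2 h overlapped a peak of any other list, against 11.5% of its acrocentric peaks.

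**Figure D4:**
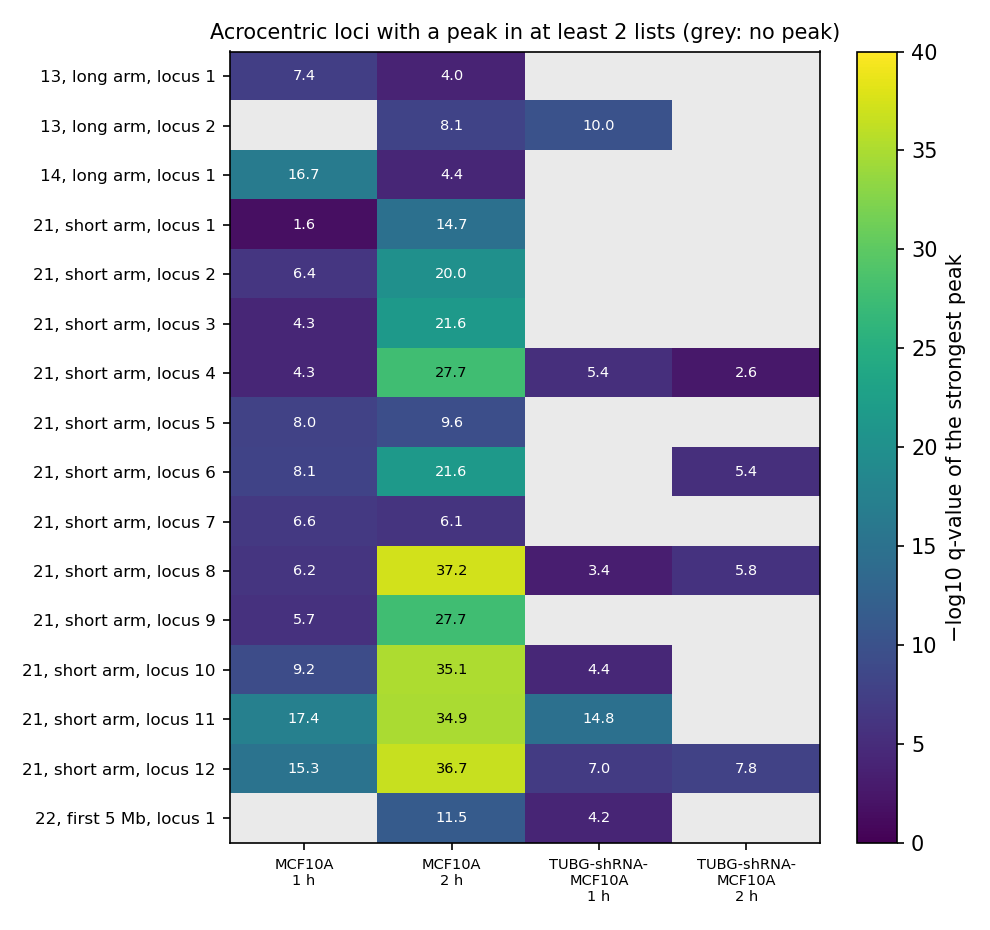
Acrocentric loci with a PCNA peak in at least 2 lists, ordered by chromosome and position, against the 4 lists. Colour and printed numbers give the −log10 q-value of the top peak at the locus in that list, and grey marks no peak. The 12 loci on the short arm of chromosome 21 include the 3 present in each list, and the highest values, up to 37.2, are those of MCF10A cells at 2 h.

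Finally, the strength of the acrocentric peaks was set beside the other peaks of the same list. In MCF10A cells at 2 h, the median fold enrichment was 7.57 in the short-arm stretch, 6.02 in the first 5 Mb of the long arms, 5.46 in the rest, and 5.85 on the other chromosomes. A fold enrichment of at least 10 was reached by 28 of the 111 short-arm peaks (25.2%), 3 of the 41 beside the gap (7.32%), 1 of the 40 in the rest (2.5%), and 14.4% of the peaks on other chromosomes. The median summit held fewer reads on the acrocentric chromosomes than elsewhere, 17, 16 and 13 reads in the 3 stretches against 25. The local background was also lower, with medians of 2.68, 4.01 and 2.44 times the genome-wide value against 6.69 times on the other chromosomes.

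**Figure D5:**
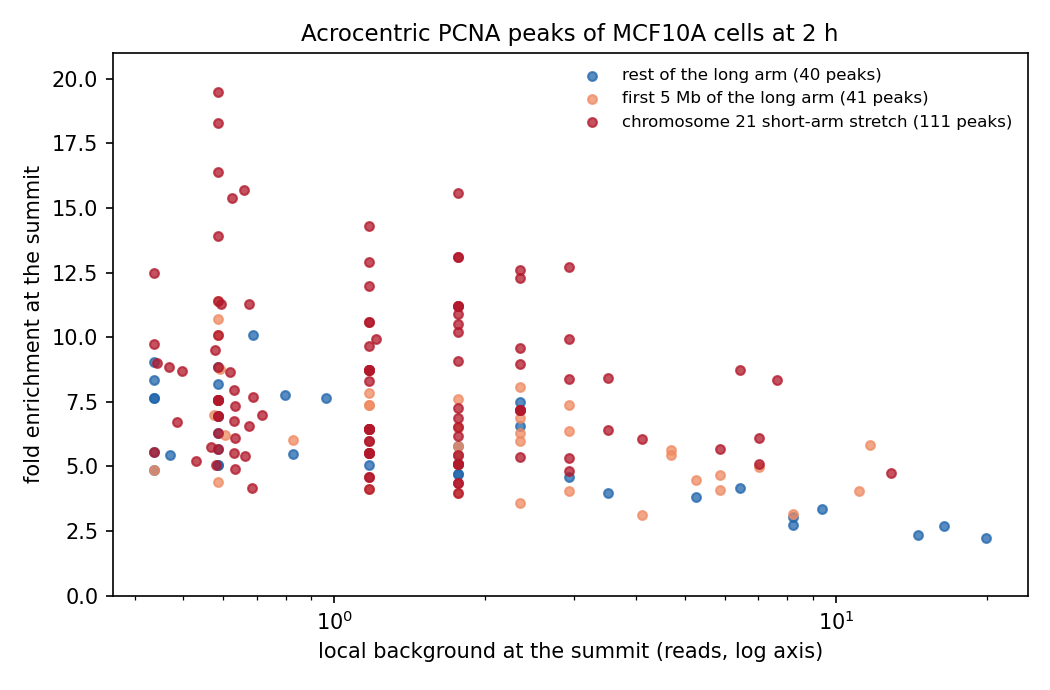
Fold enrichment at the summit against the local background in reads, on a log axis, for the 192 acrocentric PCNA peaks of MCF10A cells at 2 h, coloured by stretch. The 32 peaks with a fold of at least 10, of which 28 belong to the short-arm stretch, lie at backgrounds of at most 2.93 reads, and the highest background, 19.9 reads, goes with the lowest fold, 2.25.

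The same held for the background in the other lists. In MCF10A cells at 1 h, the median background of the acrocentric peaks was 4.19 times the genome-wide value, against 9.95 times on the other chromosomes, and their median fold enrichment was 4 against 3.05. In *TUBG*-shRNA cells at 1 h, the background was 7.93 times against 23.2 times, and the fold enrichment was 2.77 against 2.34. At 2 h, it was at least 10.3 times against at least 24.2 times, and the fold enrichment was 3.06 against 2.37. In significance, the acrocentric peaks did not lead any list. Their best rank by q-value was 43 (1 h) and 71 (2 h) in MCF10A cells, and 15 (1 h) and 60 (2 h) in *TUBG*-shRNA cells.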

How the data were processed

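PCNA ChIP-seq was analysed from 4 deposited peak lists, each made by the authors from 2 libraries of a condition. Per the labels, the submitters' processing notes name Bowtie 1.0.0, MACS2 2.1.1, bedtools 2.17.0 and hg19. The deposited values are the fold enrichment over local background (a ratio) and the −log10 of the p-value and q-value. The largest q-value of a list was 0.0462 to 0.0498. The members and the divisions of the chromosomes were chosen with earlier results of these data known.

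Peaks on chromosomes 13, 14, 15, 21 and 22 were counted by the position of their middle. The first assembled base of each long arm and the chromosome lengths were taken from the hg19 assembly as known, not from a file of the series, and gaps within the arms were not subtracted. Summit reads and background were solved from the fold enrichment (pseudocount of 1) and the Poisson p-value, within 0.0003 in −log10 p, for 100% of peaks in each list. The smallest background of a list was taken as the genome-wide one, which is an upper limit for the 2 h list of *TUBG*-shRNA cells. Shares have 95% Wilson intervals and ratios exact binomial intervals, and no test between lists was made. Named peaks were the strongest by q-value on each chromosome and in the short-arm stretch of chromosome 21, the 3 strongest beyond the first 5 Mb in each list, and those shared by all lists. Others described singly were chosen after their values were seen. Steps were tested on simulated data. Python 3.11.15, numpy 2.4.6, pandas 2.3.3, scipy 1.17.1 and matplotlib 3.10.9 were used.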

Additional observations from a re-analysis of the deposited data

Results flagged for a closer look

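In the lists as deposited, the number of acrocentric peaks changed in opposite directions from 1 to 2 h in the 2 cell populations. On the 5 chromosomes together, it rose by 171 in MCF10A cells (21 to 192) and fell by 3 in *TUBG*-shRNA cells (11 to 8). The fall in *TUBG*-shRNA cells was not seen among stronger peaks, with 4 (1 h) and 6 (2 h) at a −log10 q-value of at least 5, 2 and 2 at a value of at least 10, and 5 and 5 at a fold enrichment of at least 3. On chromosome 21, the change was 99 (19 to 118) against a loss of 1 (6 to 5), on chromosome 22 it was 21 (0 to 21) against a loss of 2 (2 to 0), and on chromosome 15 it was 15 (0 to 15) against a loss of 1 (1 to 0). The other chromosomes did not show opposite directions. On chromosome 14, the number rose in both populations (1 to 22 and 1 to 2). On chromosome 13, it rose from 1 to 16 in MCF10A cells and stayed at 1 in *TUBG*-shRNA cells. The difference between the populations was not tested, since each condition has 1 pooled list. The losses are of 1 to 3 peaks, and the fragment length behind the MCF10A peaks at 2 h was the shortest.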

How the results depend on the processing

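No paired analysis was possible because the 2 libraries of a condition were pooled before peaks were called, and for the same reason no library could be left out. Windows of 2 and 10 Mb beside the gap and an overlap of at least 1 bp left each share within its interval. When 50% of both had to be shared, the overlap of the MCF10A peaks at 1 h with 2 h was 42.9% (24.5 to 63.5). The 1 h peaks are at least 121 bp wide, while the acrocentric 2 h peaks have a median width of 60 bp. A 2 h peak of that width cannot cover 50% of a 1 h peak, so this share is limited by peak width. The cause was not tested for the changes below. Leaving out the short-arm stretch of chromosome 21, and the runs, were chosen after the data were seen.

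At −log10 q-values of at least 5, 4 peaks of *TUBG*-shRNA cells at 1 h were left, of which 75% (30.1 to 95.4) overlapped an MCF10A peak at 1 h. This share was not computed for the whole list at this threshold. Of the acrocentric MCF10A peaks at 2 h, 86.5% then lay beside the gap or in the short-arm stretch. At −log10 q-values of at least 10, 3 (1 h) and 71 (2 h) MCF10A peaks were left, a ratio of 23.7, with 2 in each *TUBG*-shRNA list. The share beside the gap or in the short-arm stretch was then 66.7% and 95.8% in MCF10A cells and 0% in *TUBG*-shRNA cells at 2 h, and the acrocentric share of the MCF10A lists was 1.52% and 5.91%. The ratio of MCF10A to *TUBG*-shRNA cells at 1 h was 3.75 (1.19 to 15.5), 1.5 (0.172 to 18) and 3 (1.04 to 10.6) at −log10 q-values of at least 5 and 10 and at a fold enrichment of at least 3. The ratio of *TUBG*-shRNA cells at 2 h to 1 h, 0.727 in the full lists, was 1.5, 1 and 1 at these thresholds, so the fall was not kept. At a fold enrichment of at least 3, 5 peaks were left in each *TUBG*-shRNA list, 4.39% of the list at 2 h.

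With peaks within 1 kb joined, MCF10A cells at 2 h had 101 acrocentric peaks, 5.61 times as many as at 1 h, with 60.4% beside the gap or in the short-arm stretch, and acrocentric shares of 5.90% (1 h) and 9.86% (2 h). Counted by base pairs covered, the ratio of MCF10A at 2 h to 1 h was 3.99, that of MCF10A to *TUBG*-shRNA cells at 2 h was 10.8, and the acrocentric share of MCF10A cells at 2 h was 4.42%.

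Without the short-arm stretch, the MCF10A lists kept 2 (1 h) and 81 (2 h) peaks and the *TUBG*-shRNA lists kept 5 (1 h) and 3 (2 h), which were 0.368%, 3.05%, 1.76% and 0.759% of their lists. The ratio of MCF10A to *TUBG*-shRNA cells at 1 h fell from 1.91 to 0.4, and that of MCF10A at 2 h to 1 h was 40.5. The share beside the gap was 0% (1 h) and 50.6% (2 h) in MCF10A cells, and 40% and 0% in *TUBG*-shRNA cells. The overlap of MCF10A peaks at 1 h with 2 h was 100% (2 of 2 peaks, 34.2 to 100), against 79.7% of the whole list. Of the 5 *TUBG*-shRNA peaks at 1 h, 0% overlapped MCF10A peaks at 1 h (upper bound, 43.4%), against 56.2% of the list. Their overlap with the same cells at 2 h was 0% (upper bound, 43.4%), against 58.6%. Of the 3 *TUBG*-shRNA peaks at 2 h, 0% overlapped MCF10A peaks at 2 h (upper bound, 56.1%), against 83.2% of the list.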
